A study of Mus musculus with 8 samples.

Results

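Stellate cells are the resident mesenchymal cells of the pancreas, and 34 genes that these cells and the matrix they lay down are known for were followed here in pancreas of inducible Sel1L knockout mice and of their littermates. Sel1L is an adaptor of the ubiquitin ligase that clears misfolded proteins from the endoplasmic reticulum. The genes were taken as a named list that covers collagens, other matrix proteins, enzymes that fold, crosslink or cut matrix, the receptors and ligands of the cells, and their cytoskeletal markers. Of the 34 genes, 33 were measured among the 18820 genes tested, and Fbn1 was not analysed here because no feature carried its symbol alone. Ctgf is given under its current symbol Ccn2.

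The 4 Sel1L knockout samples came from mice homozygous for a floxed exon 6 of Sel1l that also carried an estrogen receptor-Cre fusion under an actin promoter (fl/fl;ERCre+). The 4 wild type samples came from littermates with the same floxed alleles and without the Cre (fl/fl;ERCre-). Both groups received intraperitoneal tamoxifen, dissolved at 5 mg/ml and given at 5 μl per g body weight on each of 3 days, at an age of 8 to 20 weeks, on the C57BL/6J background. Active Cre and loss of Sel1L therefore cannot be told apart, the promoter is active in most cell types, and the labels do not say that each replicate is a separate animal, so that a p-value covers the spread between the samples as labelled, possibly technical in part.

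A quiescent pancreatic stellate cell stores vitamin A and makes little matrix. When activated, as in pancreatitis and pancreatic cancer, it takes on smooth muscle actin, secretes fibrillar collagens and fibronectin, and responds to transforming growth factor beta and platelet-derived growth factor. Procollagens are themselves folded in the endoplasmic reticulum, and fibroblasts, pericytes, smooth muscle and some macrophages share many of the same transcripts. In whole tissue, fewer cells of a type and less RNA per cell cannot be told apart.

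Values are deposited array values on the log2 scale, so that a difference of 1 is a doubling, and differences are knockout minus wild type with the moderated standard error (SE) from limma. A gene was called at a Benjamini-Hochberg adjusted p under 0.05 over all genes. Sel1l itself read 11.68, 11.66, 11.70 and 11.45 on the knockout arrays, against 12.37, 12.38, 12.38 and 12.39 on the wild type arrays. It was lower on all 4 knockout arrays (difference -0.76, SE 0.0788, limma adjusted p = 0.000196); whether the feature covers the deleted exon is not given in the sources used here.

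Knockout replicate 1 and wild type replicate 2 stood apart from their groups in the genes described here. Knockout replicate 1 gave the highest of the 4 knockout values for 28 of the 33 genes (84.8%), against 25.3% of all genes. Wild type replicate 2 gave the lowest of the 4 wild type values for 33 of 33, against 25.1% of all genes, and the lowest of all 8 arrays for 29 of them (87.9%, against 15.9%). Averaged over the 33 genes, the knockout arrays read 7.91, 7.24, 7.29 and 7.37, against 7.63, 6.56, 8.01 and 7.70 on the wild type arrays. The knockout mean was 7.45 ± 0.310 and the wild type mean 7.47 ± 0.635 (SD, n = 4 each). Without wild type replicate 2 the wild type mean was 7.78 ± 0.206 (SD, n = 3).

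Markers of other cells moved with these arrays. The 11 macrophage markers averaged 8.45, 7.53, 7.38 and 7.69 on the knockout arrays, against 7.93, 6.18, 8.53 and 7.84 on the wild type arrays, with replicate 1 highest among knockouts for 11 of 11 and replicate 2 lowest among wild types for 10 of 11. The 7 mesothelial markers averaged 5.28 on wild type replicate 2, against 6.08 to 6.32 on the other wild types, and that array was lowest for 6 of 7. Knockout replicate 1 was highest of the knockouts for 4 of the 7. Of these markers 0 were called (1 higher without knockout replicate 3). Of 9 fibroblast markers, 3 (Pdgfra, Dcn and Lum) are themselves among the 33 genes. The other 6 averaged 8.12, 7.53, 7.53 and 7.55 on the knockout arrays, against 7.30, 6.73, 7.77 and 7.66 on the wild type arrays, with replicate 1 highest among knockouts and replicate 2 lowest among wild types for 6 of 6. The 8 acinar markers ran between 12.05 and 12.11 on the knockout arrays, against 12.33 to 12.47 on the wild type arrays, with 4 of the 8 called lower, and wild type replicate 2 was lowest for 0 of the 8. The 10 endothelial markers averaged 7.35 to 7.57 on the knockout arrays, against 7.02 to 7.27 on the wild type arrays, and 6 were called higher (2 without knockout replicate 3, 3 without knockout replicate 4 and 4 to 6 without any other array). Of the macrophage markers 0 were called (2 lower without wild type replicate 2), and of the fibroblast markers 1, Gsn, was called higher (0.45, limma adjusted p = 0.031), a call lost on leaving out knockout replicate 1 or 3 or wild type replicate 2 or 3. Over all genes, 16.1% were called higher and 12.6% lower with all arrays. The part of any of these cell types in the results below was not tested.

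**Figure D1:**
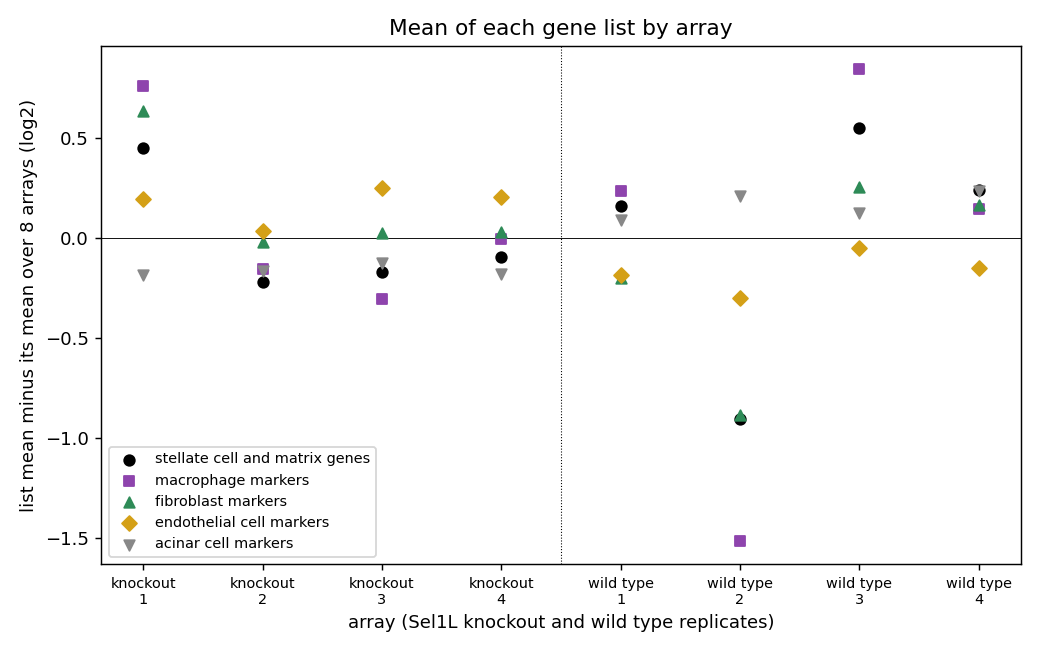
Mean log2 value of each gene list on each array, minus that list's mean over the 8 arrays (y axis), for the 4 knockout and 4 wild type arrays (x axis); each point is 1 list on 1 array, and 3 of the 9 fibroblast markers are among the 33 genes. The stellate cell and matrix genes, the macrophage markers and the fibroblast markers are all lowest on wild type replicate 2, where the 33 genes average 6.56, while the acinar markers are not.

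Of 7 measured markers of quiescent stellate cells, Gfap and Lrat were below the array median on 8 of 8 arrays, Reln on 5 and Ngfr on 1, while Plin2, Pparg and Des, which is also among the 33 genes, were above it on all 8. The 7 quiescent stellate cell markers averaged between 5.16 and 5.55 on the knockout arrays, against 4.89 to 5.61 on the wild type arrays, with 0 called in either direction (1 lower without wild type replicate 2). Of 9 markers of activated stellate cells, 6 are among the 33 genes, and 0 of the 9 were called with all arrays. Without wild type replicate 2, the lowest wild type for 8 of the 9, 4 were lower, against 10.8% of all genes. Without knockout replicate 1, 1 was lower. Outside the 33 genes, Fap and Cthrc1 had positive differences (0.38 and 0.24) and Tnc a negative one (-0.56). Those genes were below the array median on 7, 6 and 7 of 8 arrays. Of the 33 genes, 29 lay above the array median on all 8 arrays, while Col5a2 and Tagln were below the array median on 4 of 8 arrays each, Timp1 on 2 and Lox on 1. The list is thus described below by its genes and not as a measure of stellate cell number.

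With all 8 arrays, 0 of the 33 genes were called, while 28.7% of all genes were (16.1% higher and 12.6% lower in knockout pancreas). At an unadjusted p under 0.05, 3 of the 33 passed (Col5a1, Acta2 and Tagln), against 42.5% of all genes. Differences were positive for 16 and negative for 17, ran from -0.60 (Timp1) to 0.51 (Lum), and had a median of -0.00, against -0.04 over all genes. The median size of the difference, leaving its sign aside, was 0.27, against 0.22 over all genes. The error was larger in these genes, with a median SE of 0.245 against 0.109 over all genes, and the 95% interval of the difference held 0 for 30 of 33. With wild type replicate 2 left out, 13 of the 33 had an unadjusted p under 0.05, against 40.0% of all genes, and the interval held 0 for 20. The absence of calls therefore does not show that the genes were at the same level.

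Leaving out wild type replicate 2 gave 5 calls among the 33, all lower in knockout pancreas (15.2%, against 10.8% of all genes called lower and 25.4% called in either direction), namely Acta2, Col1a1, Col5a1, Fn1 and Sparc, and 0 higher. The median difference of the 33 genes was then -0.25, against -0.04 over all genes, and 25 of 33 were negative. That array was the lowest wild type for 33 of 33, so leaving it out by itself made every one of these differences more negative. The direction of the shift was thus fixed by the choice of array, and what part of it reflects the genotype was not tested. Leaving out knockout replicate 1 gave 0 calls among the 33, against 23.2% of all genes, and a median difference of -0.09. Leaving out wild type replicate 3 gave 1 call, Ccn2 higher, against 15.2% of all genes called higher and 27.8% in either direction, and leaving out any of the other 5 arrays gave 0. After quantile normalization between arrays 3 of the 33 were called, all lower (Col5a1, Acta2 and Tagln), against 12.8% of all genes called lower and 22.5% in either direction.

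**Figure D2:**
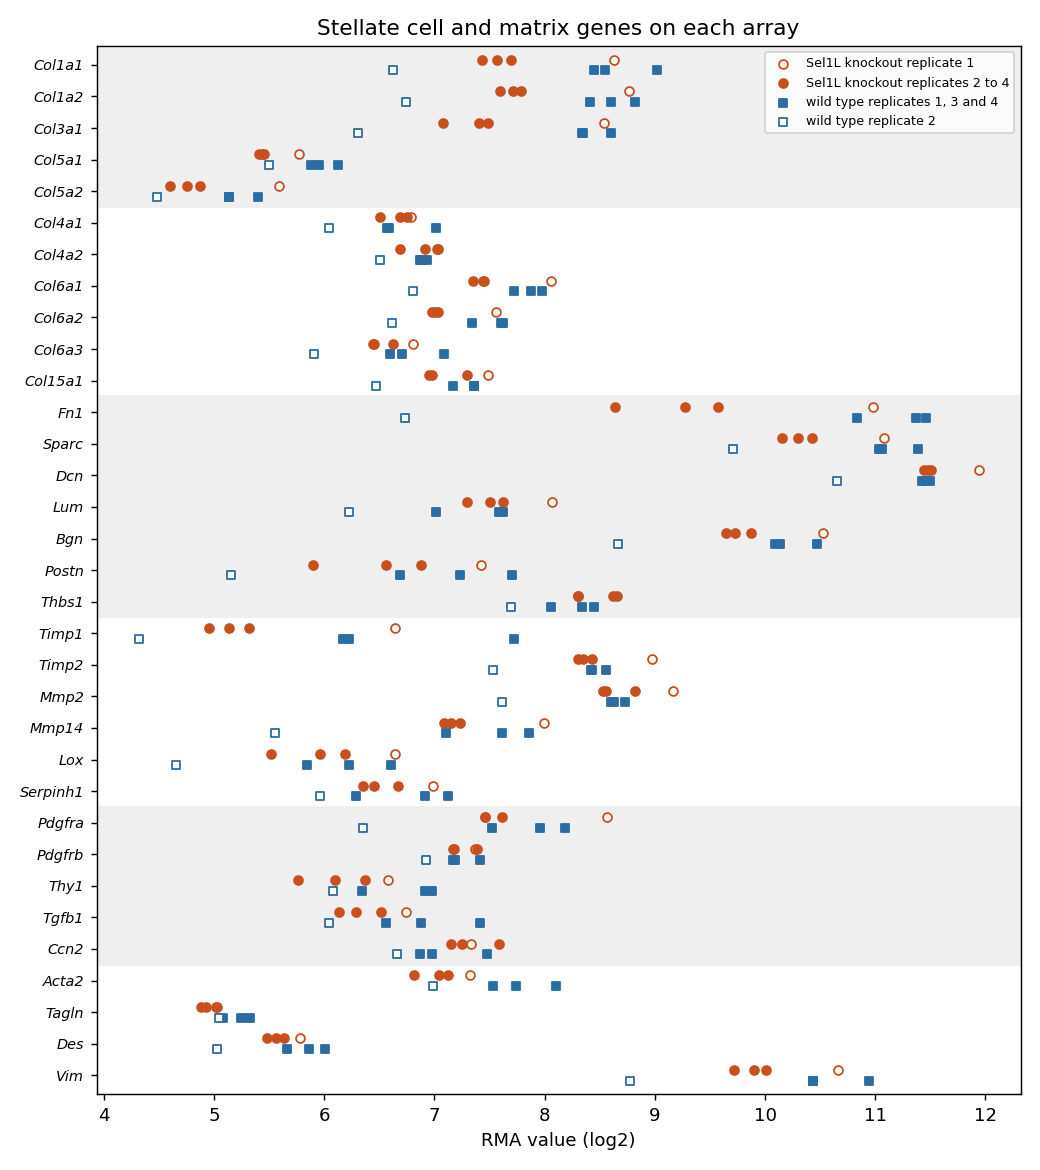
Log2 array value (x axis) of each of the 33 measured genes (y axis, grouped by role) on the 4 knockout arrays (circles) and 4 wild type arrays (squares), with knockout replicate 1 and wild type replicate 2 as open symbols. The open square lies lowest of the wild type symbols in 33 of 33 genes, and the open circle highest of the knockout symbols in 28.

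The fibrillar collagens form the tensile fibres of scar tissue. Col1a1 and Col1a2 encode the chains of type I collagen and Col3a1 that of type III. Col1a1 read 8.63, 7.56, 7.43 and 7.69 on the knockout arrays, against 8.45, 6.62, 9.02 and 8.55 on the wild type arrays. Knockout replicates 2 to 4 lay below wild type replicates 1, 3 and 4, while knockout replicate 1 lay among those and wild type replicate 2 below every other array. The difference was -0.33 (SE 0.472, limma adjusted p = 0.613) with all arrays and -0.84 (SE 0.272, adjusted p = 0.0493) without wild type replicate 2. Col1a2 read 8.77, 7.79, 7.60 and 7.71 in knockouts, against 8.41, 6.75, 8.82 and 8.60 in wild types, with knockout replicates 2 to 4 again below wild type replicates 1, 3 and 4, and its difference was -0.18 (SE 0.435, adjusted p = 0.775). Col3a1 read 8.54, 7.49, 7.08 and 7.41 in knockouts, against 8.35, 6.30, 8.60 and 8.34 in wild types, with a difference of -0.27 (SE 0.494, adjusted p = 0.701). Without wild type replicate 2, neither Col1a2 (-0.64, adjusted p = 0.0941) nor Col3a1 (-0.80, adjusted p = 0.072) passed the threshold.

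Col5a1 and Col5a2 encode chains of type V collagen, which sits inside type I fibres and limits their width. Col5a1 read 5.77, 5.40, 5.45 and 5.43 on the knockout arrays, against 5.96, 5.50, 5.88 and 6.12 on the wild type arrays, the smallest spread of the fibrillar group. It had the lowest adjusted p of the 33 genes with all arrays (difference -0.35, SE 0.14, limma adjusted p = 0.0874) and was called without wild type replicate 2 (-0.47, SE 0.114, adjusted p = 0.0169). A second feature of Col5a1 gave -0.24 (SE 0.134, adjusted p = 0.192). Col5a2 ranged from 4.60 to 5.59 in knockouts and from 4.48 to 5.40 in wild types, with a difference of -0.08 (SE 0.241, adjusted p = 0.81), or -0.27 (adjusted p = 0.363) without wild type replicate 2. It was the only one of the 33 genes whose knockout SD exceeded its wild type SD.

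The bases before the annotated starts are shown for 4 of the 33 genes, and whether they bear on the pattern over arrays was not tested. The 4 genes are named next. They are the fibrillar collagens Col1a2 and Col3a1, Acta2, with the lowest adjusted p of the cytoskeletal genes, and the mesenchymal marker Vim. In each, knockout replicate 1 was highest of the knockouts and wild type replicate 2 lowest of the wild types. Each sequence is 250 bases, 5′ to 3′ on the strand of the gene and ending at the base before the start, from RefSeq on GRCm38.p6. Capitals mark CCAAT and TATAAA on either strand.
Col1a2, chr6:4505368-4505617, plus strand: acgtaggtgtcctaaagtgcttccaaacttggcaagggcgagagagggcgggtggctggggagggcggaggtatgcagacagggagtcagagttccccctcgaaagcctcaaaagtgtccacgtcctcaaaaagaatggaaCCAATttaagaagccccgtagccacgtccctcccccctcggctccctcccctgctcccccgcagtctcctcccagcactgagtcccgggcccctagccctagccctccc
Col3a1, chr1:45311288-45311537, plus strand: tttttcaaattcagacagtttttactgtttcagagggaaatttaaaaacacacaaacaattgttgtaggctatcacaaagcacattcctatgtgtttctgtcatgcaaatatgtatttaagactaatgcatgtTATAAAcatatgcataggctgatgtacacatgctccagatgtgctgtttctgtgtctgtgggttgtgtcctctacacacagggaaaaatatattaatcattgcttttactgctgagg
Acta2, chr19:34255374-34255623, minus strand: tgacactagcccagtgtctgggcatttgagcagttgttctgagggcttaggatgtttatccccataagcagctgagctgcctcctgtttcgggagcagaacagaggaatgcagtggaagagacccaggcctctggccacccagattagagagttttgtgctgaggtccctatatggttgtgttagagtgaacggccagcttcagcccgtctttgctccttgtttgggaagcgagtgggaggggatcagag
Vim, chr2:13574061-13574310, plus strand: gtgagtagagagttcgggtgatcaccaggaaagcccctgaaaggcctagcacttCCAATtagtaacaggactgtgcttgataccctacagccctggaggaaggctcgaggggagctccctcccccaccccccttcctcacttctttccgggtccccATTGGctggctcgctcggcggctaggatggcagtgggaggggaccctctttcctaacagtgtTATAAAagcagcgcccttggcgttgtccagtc
In Col1a2 the CCAAT begins 109 bases before the start, in Col3a1 the TATAAA begins 117 bases before it, and in Vim a TATAAA begins 32 bases before it with CCAAT on each strand further out. The Acta2 window holds neither word. Of the 33 measured genes, 21 were in the promoter table. CCAAT occurred in 7 of those 21, against 37.5% of the windows of 27025 genes, TATAAA in 3 of 21, against 14.3%, and the CArG box, searched by name as the element that serum response factor binds, in 0 of 21, against 1.62%, all on both strands. These counts describe letters in the windows only. The CArG search counted only the form it was given. The Acta2 window shown holds ccctatatgg and ccttgtttgg, which resemble that element and were not counted, and binding to them was not tested. A 0 therefore does not show that a window, that of Acta2 included, lacks a site for serum response factor.

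The collagens of basement membranes and beaded networks had differences nearer to 0. Col4a1 and Col4a2 encode the chains of the type IV network that underlies epithelium and vessels. Col4a1 read 6.78, 6.51, 6.69 and 6.75 in knockouts, against 6.59, 6.04, 7.02 and 6.57 in wild types (difference 0.13, SE 0.177, limma adjusted p = 0.598). Col4a2 read 7.02, 6.69, 6.91 and 7.03 in knockouts, against 6.87, 6.50, 6.94 and 6.89 in wild types (0.11, SE 0.12, adjusted p = 0.487), and in both genes the groups overlapped. Col6a1, Col6a2 and Col6a3, chains of the beaded filaments around cells, had differences of -0.02, -0.15 and 0.01 (adjusted p = 0.958, 0.632 and 0.987). Col15a1, a vessel-associated collagen of the basement membrane zone, ranged from 6.95 to 7.49 in knockouts and from 6.47 to 7.36 in wild types, with a difference of 0.09 (adjusted p = 0.757). Without wild type replicate 2, 0 of these 6 collagens were called, and Col6a2 had the lowest adjusted p (-0.38, adjusted p = 0.097). The others were then at -0.042 (Col4a1), 0.015 (Col4a2), -0.28 (Col6a1), -0.22 (Col6a3) and -0.12 (Col15a1).

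Fn1, the fibronectin on which collagen fibres assemble, spread more widely than any other of the 33 genes. It read 10.98, 9.27, 8.64 and 9.57 on the knockout arrays, against 11.37, 6.73, 11.46 and 10.84 on the wild type arrays. The highest and lowest wild type arrays were thus 26.5-fold apart and the knockout arrays 5.08-fold apart. The difference was -0.48 (SE 0.976, limma adjusted p = 0.727), with a 95% interval from -2.67 to 1.70. Without wild type replicate 2 it was -1.61 (SE 0.455, adjusted p = 0.0315), a 3.04-fold lower level in knockout pancreas, although knockout replicate 1 then still lay above wild type replicate 4.

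Sparc, a collagen-binding protein secreted by active stroma, read 11.08, 10.15, 10.30 and 10.42 in knockouts, against 11.06, 9.71, 11.39 and 11.03 in wild types. Its difference was -0.31 (SE 0.341, limma adjusted p = 0.509), and -0.67 (SE 0.205, adjusted p = 0.0408) without wild type replicate 2. Postn, the periostin of remodelling tissue, read 7.43, 6.56, 5.90 and 6.88 in knockouts, against 6.69, 5.15, 7.70 and 7.23 in wild types, with group means that both rounded to 6.69 and a difference of -0.00 (SE 0.509, adjusted p = 0.996), or -0.52 (adjusted p = 0.281) without wild type replicate 2. Both genes put wild type replicate 2 below every other array.

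The small leucine-rich proteoglycans had positive differences that did not pass the test. Dcn, the decorin that coats collagen fibres, read 11.94, 11.44, 11.50 and 11.47 in knockouts, against 11.42, 10.65, 11.46 and 11.50 in wild types. Lum, the lumican that spaces collagen fibres, read 8.07, 7.30, 7.50 and 7.62 in knockouts, against 7.02, 6.22, 7.59 and 7.63 in wild types. The differences were 0.33 for Dcn (SE 0.195, limma adjusted p = 0.223) and 0.51 for Lum (SE 0.296, adjusted p = 0.216), the most positive of the 33 genes, and neither passed. They were 0.13 and 0.21 without wild type replicate 2 (adjusted p = 0.464 and 0.45). Bgn, the related biglycan, ranged from 9.65 to 10.53 in knockouts and from 8.67 to 10.47 in wild types, with a difference of 0.10 (SE 0.359, adjusted p = 0.844). Thbs1, the thrombospondin that can activate latent transforming growth factor beta, read 8.30, 8.30, 8.65 and 8.62 in knockouts, against 8.34, 7.70, 8.45 and 8.06 in wild types (0.33, SE 0.166, adjusted p = 0.156). Without wild type replicate 2, Bgn was at -0.29 and Thbs1 at 0.19 (adjusted p = 0.311 and 0.321).

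Among the genes of matrix turnover, Timp1, a secreted inhibitor of metalloproteinases, had the most negative difference of the 33 genes. It read 6.64, 5.32, 4.95 and 5.14 in knockouts, against 6.23, 4.32, 7.72 and 6.17 in wild types (-0.60, SE 0.631, limma adjusted p = 0.49), and -1.20 (SE 0.464, adjusted p = 0.0871) without wild type replicate 2. Timp2, a related inhibitor that also takes part in activating pro-MMP2, ranged from 8.30 to 8.97 in knockouts and from 7.53 to 8.56 in wild types (0.28, adjusted p = 0.377). Mmp2, a gelatinase, read 9.16, 8.53, 8.82 and 8.55 in knockouts, against 8.60, 7.62, 8.63 and 8.73 in wild types (0.37, SE 0.245, adjusted p = 0.272). Mmp14, its membrane-bound activator, ranged from 7.09 to 7.99 in knockouts and from 5.55 to 7.86 in wild types (0.34, SE 0.446, adjusted p = 0.587). With all arrays the difference was negative for Timp1 and positive for Timp2, Mmp2 and Mmp14, while without wild type replicate 2 it was 0.047 for Timp2, 0.11 for Mmp2 and -0.16 for Mmp14 (adjusted p = 0.841, 0.599 and 0.641).

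Lox, the enzyme that crosslinks collagen and elastin, read 6.65, 5.51, 6.18 and 5.96 in knockouts, against 5.84, 4.66, 6.61 and 6.23 in wild types, with a difference of 0.24 (SE 0.387, limma adjusted p = 0.656). Serpinh1, the collagen chaperone HSP47 of the endoplasmic reticulum, read 6.99, 6.35, 6.45 and 6.67 in knockouts, against 6.29, 5.96, 7.12 and 6.92 in wild types. Its difference was 0.04 (SE 0.248, adjusted p = 0.908), with a 95% interval from -0.51 to 0.60. The differences without wild type replicate 2 were -0.15 for Lox and -0.16 for Serpinh1 (adjusted p = 0.68 and 0.588).

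Of the receptors and ligands, Pdgfra, a receptor for platelet-derived growth factor on fibroblasts, read 8.57, 7.46, 7.61 and 7.46 in knockouts, against 7.52, 6.35, 8.18 and 7.96 in wild types (difference 0.27, SE 0.391, limma adjusted p = 0.616). Pdgfrb, the receptor of pericytes and stellate cells, was far steadier, at 7.37, 7.18, 7.39 and 7.16 in knockouts, against 7.17, 6.92, 7.41 and 7.19 in wild types (0.10, SE 0.112, adjusted p = 0.516). Its 95% interval ran from -0.15 to 0.35, the narrowest among the receptors and ligands. Thy1, a surface glycoprotein of fibroblasts, ranged from 5.76 to 6.58 in knockouts and from 6.08 to 6.98 in wild types (-0.37, SE 0.231, adjusted p = 0.244). Tgfb1, the ligand that drives matrix synthesis, ranged from 6.13 to 6.74 in knockouts and from 6.04 to 7.41 in wild types (-0.30, SE 0.257, adjusted p = 0.389). Ccn2, the connective tissue growth factor that transforming growth factor beta induces, read 7.33, 7.15, 7.59 and 7.25 in knockouts, against 6.87, 6.66, 7.48 and 6.98 in wild types (0.33, SE 0.168, adjusted p = 0.161). Wild type replicates 1, 2 and 4 lay below every knockout array and wild type replicate 3 among the knockouts, and without that array the difference was 0.49 (adjusted p = 0.0211). With wild type replicate 2 left out instead, the differences were -0.11 for Pdgfra, 0.016 for Pdgfrb, -0.54 for Thy1, -0.53 for Tgfb1 and 0.22 for Ccn2, with adjusted p from 0.087 (Tgfb1) to 0.917 (Pdgfrb).

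Of the cytoskeletal markers, Acta2, the smooth muscle actin that defines activated stellate cells and also vessel muscle, read 7.33, 6.81, 7.12 and 7.04 in knockouts, against 7.74, 6.98, 8.10 and 7.53 in wild types. Its difference was -0.51 (SE 0.212, limma adjusted p = 0.0965), with a 95% interval from -0.99 to -0.04, and -0.71 (SE 0.157, adjusted p = 0.0114) without wild type replicate 2. Tagln, an actin-binding protein of smooth muscle, read 5.01, 4.93, 5.03 and 4.88 in knockouts, against 5.08, 5.04, 5.32 and 5.25 in wild types. It was the 1 gene of the 33 whose groups did not overlap (3.03%, against 14.6% of all genes with knockouts lower and 32.2% in either direction), and its difference did not pass the test (-0.21, SE 0.0879, adjusted p = 0.0994). Leaving out wild type replicate 2, the groups did not overlap for 3 of 33 (9.09%, against 16.9% of all genes with knockouts lower and 36.4% in either direction), Col5a1, Acta2 and Tagln, each lower in knockouts.

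Vim and Des encode the intermediate filaments of mesenchymal cells and of muscle and stellate cells. Vim read 10.66, 10.01, 9.72 and 9.90 in knockouts, against 10.43, 8.78, 10.94 and 10.43 in wild types (-0.07, SE 0.41, limma adjusted p = 0.904). Des read 5.78, 5.48, 5.64 and 5.56 in knockouts, against 5.86, 5.03, 6.01 and 5.66 in wild types (-0.02, SE 0.189, adjusted p = 0.932). In both, wild type replicate 2 was the lowest of the 8 arrays, and without it the differences were -0.53 for Vim and -0.23 for Des (adjusted p = 0.105 and 0.161). Among 12 pericyte and smooth muscle markers, 4 were higher and 1 lower with all arrays, against 16.1% and 12.6% of all genes. Of those higher, Actg2 and Cnn1 lay below the array median on 8 of 8 arrays, as did the 1 lower gene. Rgs5 (0.56, limma adjusted p = 0.0216) lay above it on all 8, as did the remaining gene called higher. Rgs5 was still called without wild type replicate 2 (adjusted p = 0.0365) but not without knockout replicate 1 (adjusted p = 0.0565). When 1 array was left out, 1 to 3 were higher and 0 to 1 lower, the fewest without knockout replicate 3 or wild type replicate 1.

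**Figure D3:**
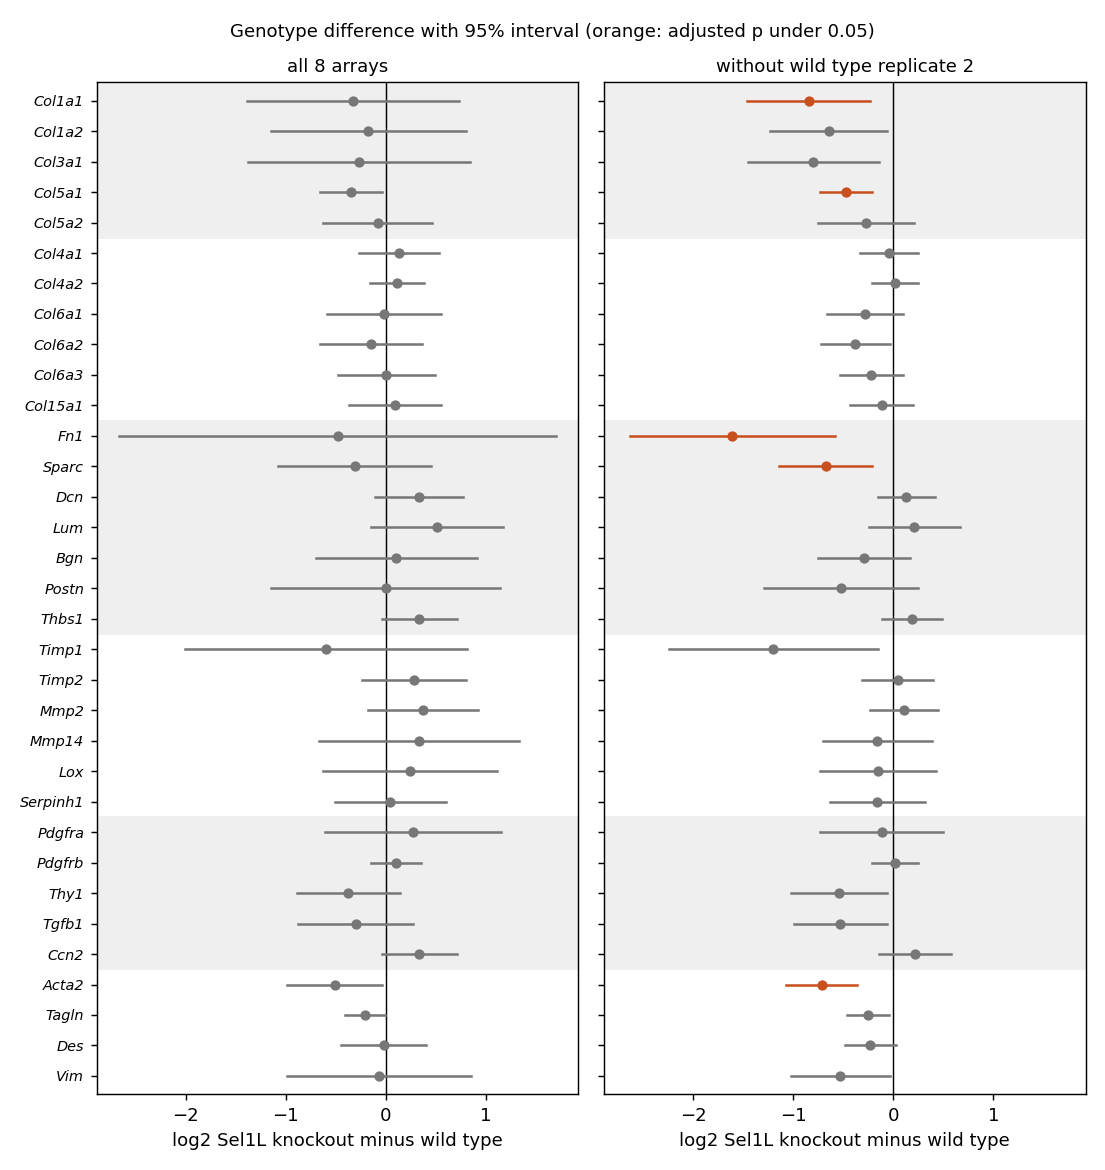
Difference, log2 knockout minus wild type (x axis), with its 95% interval for each of the 33 genes (y axis), with all 8 arrays (left) and without wild type replicate 2 (right); orange marks genes called. With all arrays the interval holds 0 for 30 of 33 genes. Without wild type replicate 2, the lowest wild type array for every gene shown, the median moves to -0.25.

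The spread between replicates was itself larger in these genes than in most. The median SD over the 33 genes was 0.311 in knockouts and 0.522 in wild types, against 0.121 in knockouts and 0.169 in wild types over all genes. The SD was larger in wild types for 32 of 33 (97.0%, against 68.4% of all genes). The median wild type SD of the 33 genes without wild type replicate 2 was 0.205, and the SD was larger in wild types for 12 of 33 (36.4%, against 60.5% of all genes). The median knockout SD without knockout replicate 1 was 0.140, and with both arrays left out the SD was larger in wild types for 28 of 33 (84.8%, against 65.2% of all genes). Wild type replicate 2 lay at least 1 log2 unit below the mean of the other wild types for 15 genes and at least 2 units below for 5, and over the 33 genes its median offset was -0.91, against 0.017 over all genes. Knockout replicate 1 lay at least 1 unit above the mean of the other knockouts for 6 genes, with a median offset of 0.554, against -0.0145 over all genes. Wild type replicate 3 was the highest of the wild type arrays for 26 of the 33 genes (78.8%, against 23.3% of all genes). The difference between genotypes was smaller than the wild type SD for 30 of the 33 genes (against 40.5% of all genes), and for 12 of the 33 (against 37.5%) without wild type replicate 2. Setting each gene against the mean of the 33 genes on its array, a scale chosen after seeing the data, gave 0 calls among the 33, against 1.17% of all genes. On that scale 2 of the 33, Lum and Mmp2, had every knockout array above every wild type array, against 2.34% of all genes separated in either direction. The mean was subtracted from every gene, so the swing of the 33 genes between arrays entered all the others. The share of all genes called thereby fell from 28.7% to 1.17%. Neither share on that scale can therefore serve as a background for the 33 genes. Each of the 33 genes had the same SE there, 0.382, whatever its own spread, and the largest difference was -0.58 (Timp1). The 0 calls on that scale therefore say nothing about the single genes.

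**Figure D4:**
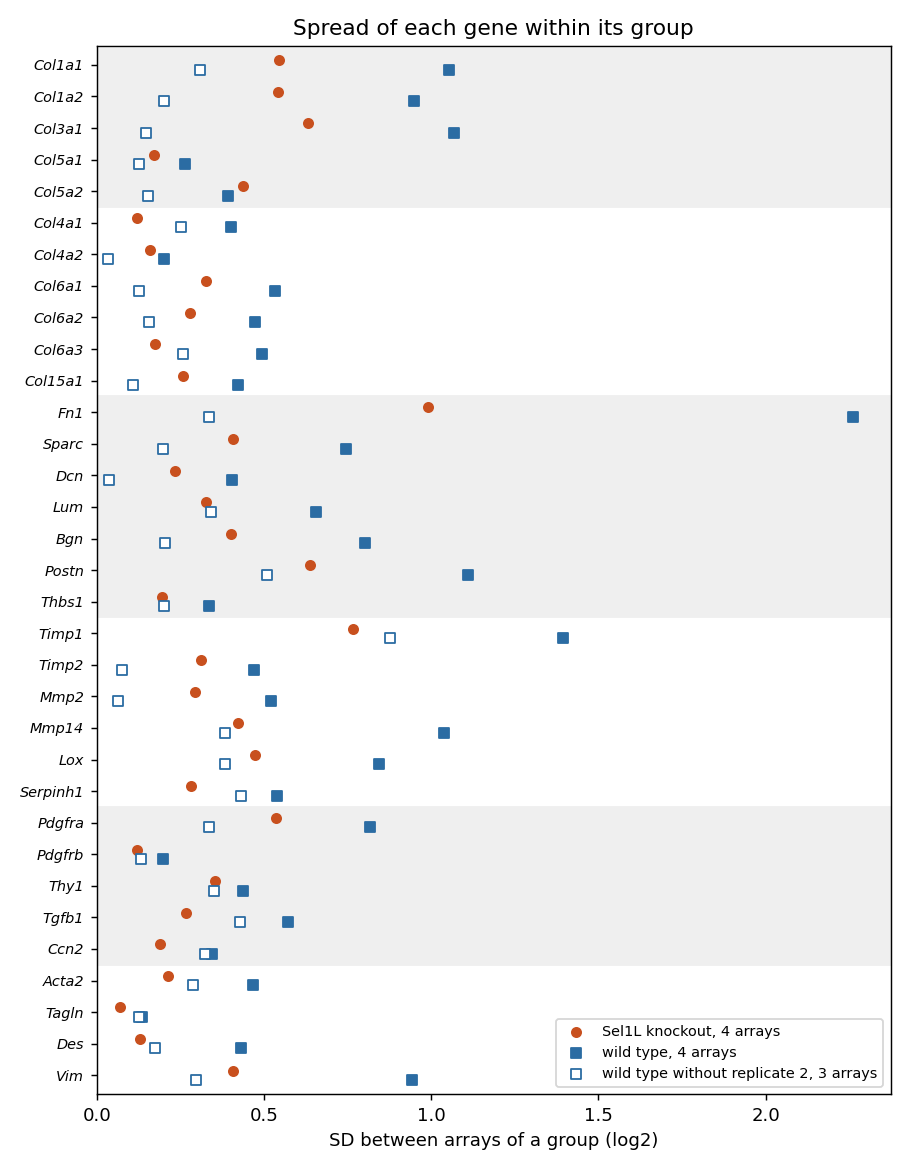
Standard deviation (log2 units) (x axis) of each of the 33 genes (y axis) over the 4 knockout arrays (circles), the 4 wild type arrays (filled squares) and the 3 wild type arrays other than replicate 2 (open squares). With all arrays the wild type SD is the larger for 32 of 33 genes, the exception being Col5a2.

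Lists of other genes of the matrix and its signalling held called genes, where the 33 genes held none. Each count with all arrays below is to be set beside the shares over all genes, 16.1% higher and 12.6% lower. No list was tested as a set. Of 20 other collagens, 5 were lower in knockouts and 0 higher, against 12.6% and 16.1% of all genes. Col11a1, a minor fibrillar collagen, lay below the array median on 8 of 8 arrays (3.81 to 3.89 in knockouts, against 4.27 to 4.43 in wild types, difference -0.50, limma adjusted p = 0.00119). Col17a1 of epithelial anchorage (-0.35, adjusted p = 0.0229) and Col16a1 of fibril surfaces (-0.28, adjusted p = 0.0238) were also lower, the first below the array median on 8 of 8 arrays and the second on 5. The count was 2 without knockout replicate 3 or 4, 3 without knockout replicate 2 or wild type replicate 2, and 6 without wild type replicate 3. Of 13 laminins and other basement membrane genes, 4 were higher and 0 lower. Lama2, the laminin chain of muscle and mesenchyme, read 7.66, 7.28, 7.69 and 7.29 in knockouts, against 6.93, 6.50, 6.95 and 6.94 in wild types (0.65, SE 0.140, adjusted p = 0.00833), and Agrn, the basement membrane proteoglycan agrin, differed by 0.34 (adjusted p = 0.0086). Lama3, an epithelial laminin chain, differed by 0.45 (adjusted p = 0.018), and 3 to 4 were higher and 0 to 1 lower when 1 array was left out.

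Of 24 other interstitial matrix genes, 2 were higher and 1 lower, against 16.1% and 12.6% of all genes. The counts were 1 to 2 higher and 0 to 3 lower when 1 array was left out. Fbln5, an elastic fibre protein, was higher (0.42, limma adjusted p = 0.00934), and Ltbp2, of the latent transforming growth factor beta binding family, was lower (-0.42, adjusted p = 0.0307). The lower count was 3 without wild type replicate 2, 2 without knockout replicate 1 and 0 without wild type replicate 3 or knockout replicate 2, 3 or 4. Of 23 enzymes that fold and process collagen, 4 were higher and 3 lower. P4ha2, a prolyl hydroxylase of procollagen in the endoplasmic reticulum, read 5.55, 5.26, 5.64 and 5.55 in knockouts, against 5.83, 6.33, 6.09 and 6.40 in wild types (-0.66, SE 0.138, adjusted p = 0.00706). Adamts3, which cleaves the amino end of procollagen, was lower (-0.56, adjusted p = 0.00805). Colgalt1, which adds galactose to collagen, was higher (0.38, adjusted p = 0.0119). This list had 3 higher and 6 lower without wild type replicate 2, and without wild type replicate 1 or knockout replicate 1, 3 or 4 it had 1 higher and 2 lower.

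Of 20 proteases and inhibitors, 3 were higher and 1 lower, against 16.1% and 12.6% of all genes. Mmp7, the metalloproteinase matrilysin, which is made by epithelium, read 7.79, 5.51, 7.77 and 5.53 in knockouts, against 4.73, 3.84, 4.01 and 4.11 in wild types (2.48, SE 0.539, limma adjusted p = 0.0086). Knockout replicates 1 and 3 lay above knockout replicates 2 and 4, and all 4 above every wild type array. The 4 wild type values of Mmp7 were below the array median, so the size of its difference rests on dim wild type values. Reck, a membrane inhibitor of metalloproteinases, was higher by 0.54 (adjusted p = 0.00452), and Plau, the urokinase, by 0.45 (adjusted p = 0.0129). The lower count was 0 without knockout replicate 2, 3 or 4. Of 21 genes of transforming growth factor beta signalling, 3 were higher and 1 lower, with Itgb8, an integrin chain that activates the latent ligand, higher (0.82, adjusted p = 0.00273) and Smad7, an inhibitor of the pathway, lower (-0.71, adjusted p = 0.0196). Tgif1, a nuclear corepressor of the pathway, was higher (0.55, adjusted p = 0.0106).

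Of 9 ligands of the platelet-derived growth factor and CCN families, 2 were higher and 0 lower, against 16.1% and 12.6% of all genes. Pdgfd, a ligand of the receptor Pdgfrb, read 6.97, 6.66, 7.06 and 6.80 in knockouts, against 6.12, 6.16, 6.29 and 6.19 in wild types, with no overlap (0.68, SE 0.0991, limma adjusted p = 0.00119). The counts were 1 higher and 0 lower without knockout replicate 3, 2 and 1 without knockout replicate 2, and 2 and 2 without wild type replicate 4. Of 22 matrix receptors, 6 were higher and 1 lower (4 higher without knockout replicate 1). Ddr1, a collagen receptor of epithelium, was higher by 0.61 (adjusted p = 0.00135), Itgb4, the laminin-binding integrin chain of epithelium, by 0.51 (adjusted p = 0.00141), and Dag1, the dystroglycan that binds laminin, lower (-0.45, adjusted p = 0.00268). Of the genes named from these lists, all but Col17a1 (-0.32, adjusted p = 0.0501) were also called without wild type replicate 2, and none of the 33 genes was called higher in either setting.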

How the data were processed

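RNA of 4 Sel1L knockout and 4 wild type pancreas samples was hybridised to 8 arrays. The deposited values were made by RMA, per the submitters' processing notes, and are taken as log2 from that method and their range (0.964 to 14.4), since no header names the base; its version, the probe definition and the build are not stated there. Array medians lay between 4.94 and 5.05, and precision is set by having 8 arrays. Of 35556 features, 21218 had 1 gene symbol in GEO's platform annotation, 1881 several and 12457 none; features with several or none were left out. Of several features of a gene, that of highest mean was kept (2398 left out), giving 18820 genes with no filter on dim ones.

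The 2 genotypes were compared in R 4.3.3 by lmFit and eBayes of limma 3.58.1, with Benjamini-Hochberg adjustment over all genes and a threshold of 0.05, and the fit was tested on simulated data. Alternatives were other normalizations, a filter on dim genes, other rules for features, trend and robust variance, array weights, a replicate block and leaving out each array. Same-numbered samples did not deviate together. The 34 genes, the other lists and the tests were chosen with earlier results of these data known. All listed genes are described, and from each other list at most 3 called genes of smallest p whose groups do not overlap. Markers of quiescent and activated stellate cells are named whether called or not. Promoter sequences are from RefSeq (GRCm38.p6).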

Additional observations from a re-analysis of the deposited data

Results flagged for a closer look

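Single arrays lay far from the other 3 of their group in 13 of the 66 groups of 4 values (33 genes in 2 genotypes). They were picked out by Dixon's criterion, the gap to the nearest value over the range of the group. Its cutoff is set to flag about 1 in 20 groups of independent, normally distributed values. The share flagged over all genes is not given here, so the count cannot be called particular to these genes. In 7 of these, knockout replicate 1 was high: Col1a2 at 8.77, Col5a1 at 5.77, Col6a1 at 8.06, Col6a2 at 7.56, Dcn at 11.94, Mmp14 at 7.99 and Pdgfra at 8.57. In the other 6, wild type replicate 2 was low: Col3a1 at 6.30, Col4a2 at 6.50, Fn1 at 6.73, Dcn at 10.65, Timp2 at 7.53 and Mmp2 at 7.62. Dcn was set apart in both genotypes. The genes share their arrays, so these are not 13 independent cases, and no cause was tested.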

How the results depend on the processing

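Of the 33 genes, 0 were called with all arrays. The number was 3 after quantile normalization (Col5a1, Acta2 and Tagln lower), 2 after centring each array on its median (Col5a1 and Tagln lower), 1 after cyclic loess (Col5a1 lower), 2 with array weights (Col5a1 and Acta2 lower) and 0 to 5 when 1 array was left out. With a replicate block it was 2 (Ccn2 higher, Acta2 lower), although same-numbered samples did not pair (correlations of 0.22, 0.15, -0.27 and -0.02). The number was 0 under the filter on dim genes, which removed Col5a2 and Tagln, under both other rules for features, and with trend and robust variance. Over all genes, 3721 to 5227 were called when 1 array was left out, against 5406 with all arrays. The share of these calls that was higher was 56.0% with all arrays, 42.9% after quantile normalization, 36.3% after centring, 48.1% after cyclic loess and 72.2% under the filter on dim genes. The median difference of all genes was -0.04 with all arrays, -0.11 after centring and 0.13 under that filter, and that of the 33 genes was -0.25 to 0.18 when 1 array was left out.

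The sign of the difference changed in some alternative for 16 of the 33 genes, and the cause was not tested. Quantile normalization gave -0.030 for Col4a1, -0.053 for Col4a2, -0.16 for Col6a3, -0.082 for Col15a1, -0.11 for Serpinh1 and -0.066 for Pdgfrb. Cyclic loess gave -0.011, -0.030, -0.13, -0.055, -0.10 and -0.046 for those 6 genes in that order. Centring gave -0.071 for Col6a3 and -0.034 for Serpinh1, and array weights gave -0.072 for Col6a3, -0.035 for Bgn and -0.084 for Serpinh1. Leaving out 1 array gave ranges of -0.64 to 0.045 for Col1a2, -0.30 to 0.037 for Col5a2, -0.042 to 0.28 for Col4a1, -0.28 to 0.11 for Col6a1, -0.22 to 0.18 for Col6a3, -0.12 to 0.18 for Col15a1, -0.29 to 0.31 for Bgn and -0.52 to 0.33 for Postn. The ranges were -0.16 to 0.61 for Mmp14, -0.15 to 0.50 for Lox, -0.16 to 0.22 for Serpinh1, -0.11 to 0.50 for Pdgfra, -0.23 to 0.10 for Des and -0.53 to 0.19 for Vim. Relative to the mean of the 33 genes on each array, a setting chosen after seeing the data, the difference was 0.00040 for Col6a1 and 0.017 for Postn.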
